A study of Mus musculus with 16 samples.

Results

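The cytosolic ribosomal protein genes were taken from the count files by symbol. Every row whose symbol starts with Rpl or Rps followed by a digit, or by p and a digit, was a member, together with Rpsa, and the S6 kinase genes and rows marked as pseudogenes were left out. This gave 88 members of 24421 gene symbols, 53 named for the large subunit and 35 for the small subunit. Of these, 77 encode the standard proteins of the ribosome, 10 are paralogues or extra copies such as Rpl3l and Rpl22l1, and Rps19bp1 shares only the prefix, since its protein binds Rps19 and is not part of the ribosome. Between 0 and 5 counts per library were recorded for 7 members, which did not pass the filter on low counts, so 81 members (48 large, 33 small) were tested in each comparison.

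Messenger RNA was measured by 3′ sequencing in 2 subsets of myeloid-derived suppressor cells, the monocytic (M-MDSCs) and the granulocytic (G-MDSCs). They were sorted from spleens of C57BL/6 mice with tumors of B16.F10, a mouse melanoma line implanted under the skin. The hosts were wild type (WT) or Nlrp3-/-. In the Nlrp3-/- line an EGFP cassette disrupts the gene for the inflammasome sensor NLRP3 in the germline, so every host cell carried the disrupted gene, while the implanted tumor cells were Nlrp3-sufficient in both genotypes. M-MDSCs were gated as CD11b high Ly6C+ Ly6G- cells and G-MDSCs as CD11b high Ly6C- Ly6G+ cells, and each of the 4 groups held 4 libraries, each from a single mouse. Both subsets were sequenced from each of 8 mice, which gave 16 libraries of 2295967 to 6079866 counts.

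A ribosome joins a small subunit, which reads the messenger RNA, to a large subunit, which forms the peptide bond. Each subunit is built in the nucleolus from ribosomal RNA and a single copy of most of the ribosomal proteins. The messenger RNAs of these proteins are among the most abundant of a cell and begin with a pyrimidine tract, the 5′ terminal oligopyrimidine (TOP) motif, through which mTOR signaling and Larp1 govern their translation and stability. Ribosome synthesis is known to decline as neutrophils mature.

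The starts of 7 members are shown as examples of the pyrimidine tract. Of the members, 67 had an entry in the RefSeq promoter table (GRCm38.p6). A C at the annotated start followed by at least 4 more C or T letters was found at 14 of 79 member entries (17.7%) and at 2.51% of all 32851 entries. Most members thus did not hold it at their annotated start. The starts below run from 15 bases before to 15 bases after the annotated start, with the pyrimidine run from the start in capitals.
Rplp2, chr7:141447636-141447665, plus strand: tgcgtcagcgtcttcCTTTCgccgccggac
Rpl35, chr2:39005117-39005146, minus strand: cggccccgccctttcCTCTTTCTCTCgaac
Rpl38, chr11:114668565-114668594, plus strand: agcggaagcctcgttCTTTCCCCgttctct
Rps18, chr17:33955651-33955680, minus strand: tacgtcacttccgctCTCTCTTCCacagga
Rps6, chr4:86857353-86857382, minus strand: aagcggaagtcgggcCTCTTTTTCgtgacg
Rpl15, chr14:18270972-18271001, minus strand: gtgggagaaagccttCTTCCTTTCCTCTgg
Rps27, chr3:90213634-90213663, minus strand: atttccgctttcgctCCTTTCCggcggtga
A start placed a few bases off by the annotation does not match, so the share is that of annotated starts only. Rpl35 and Rplp2 both hold the tract and moved in opposite directions between the genotypes, as described below.

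The targeted gene matched the labels. Nlrp3 counts in M-MDSCs were 219 to 632 (WT) and 4 to 11 (Nlrp3-/-). In G-MDSCs they were 744 to 1365 (WT) and 21 to 59 (Nlrp3-/-). Marker genes followed the sort. The summed level of 10 monocyte markers was 5666 to 8559.8 CPM (the count scaled to a common library size) in M-MDSCs and 916 to 1768 CPM in G-MDSCs. That of the 9 granulocyte markers found in the files was 1135 to 7454.5 CPM in M-MDSCs and 106295 to 163406 CPM in G-MDSCs. CPM were scaled by the trimmed mean of M values (TMM) over all 16 libraries and were not divided by gene length, because the assay gives about 1 read per transcript.

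Ribosomal protein transcripts took a larger part of the libraries of M-MDSCs than of G-MDSCs, and a larger part in Nlrp3-/- than in WT cells. The large subunit members summed to 2.76% ± 0.32 of the counts of a library in WT and 3.54% ± 0.327 in Nlrp3-/- M-MDSCs (SD, n = 4 in this and all later groups). In G-MDSCs the same sum was 0.898% ± 0.0698 in WT and 1.3% ± 0.0627 in Nlrp3-/- mice. In M-MDSCs the small subunit members summed to 2.53% ± 0.267 with Nlrp3 and to 3.44% ± 0.351 without it. In G-MDSCs they summed to 0.784% ± 0.0637 with Nlrp3 and to 1.17% ± 0.0464 without it. For the small subunit no library of one group overlapped with the other genotype in either subset. For the large subunit the G-MDSC groups stayed apart, while WT M-MDSC library 3 (3.19%) lay above Nlrp3-/- M-MDSC library 2 (3.07%). In bulk samples a smaller number of cells of a kind and less of an RNA per cell cannot be told apart.

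**Figure D1:**
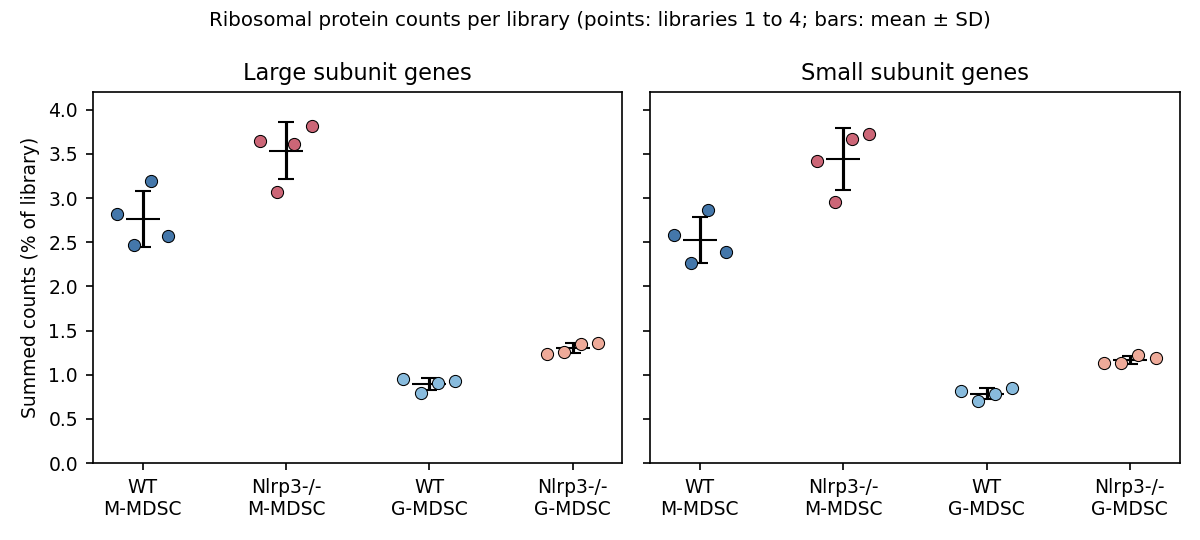
Summed counts of the large subunit members (left) and the small subunit members (right) as a percent of the counts of each library (vertical axis), by group (horizontal axis). Points are libraries 1 to 4 and bars are mean ± SD. All G-MDSC libraries lie below all M-MDSC libraries, and the Nlrp3-/- libraries lie above the WT libraries of the same subset except for 1 overlap in the large subunit of M-MDSCs.

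Within a mouse, the large subunit share was 2.75 to 3.52 times higher in M-MDSCs than in G-MDSCs of the WT mice and 2.44 to 2.95 times higher in the Nlrp3-/- mice. For the small subunit the ratios were 2.82 to 3.68 and 2.61 to 3.13. After TMM scaling the same ratios were smaller, 1.71 to 2.01 for the large and 1.75 to 2.1 for the small subunit in WT mice, and 1.39 to 1.63 and 1.49 to 1.81 in Nlrp3-/- mice. The TMM factors were 1.20 to 1.46 in M-MDSCs and 0.722 to 0.804 in G-MDSCs, so the size of the subset difference depends on the scaling while its direction was the same on both scales in all 8 mice. The ratio of large to small subunit counts was 1.08 to 1.11 in WT and 0.983 to 1.07 in Nlrp3-/- M-MDSCs, with no overlap. In G-MDSCs it was 1.1 to 1.18 in WT and 1.1 to 1.14 in Nlrp3-/- mice.

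The members differed widely in level among themselves. Rpl37, a small zinc-binding protein of the large subunit, had the highest mean level of the large subunit members, with 2008 ± 316 CPM in WT M-MDSCs and 3325 ± 432 CPM in Nlrp3-/- G-MDSCs. Rps14, a protein of the 40S platform, was the highest of the small subunit, at 2266 ± 219 CPM in WT and 3736 ± 1134 CPM in Nlrp3-/- M-MDSCs. The lowest members that were tested were Rpl15, between 0.333 and 21.6 CPM, and Rps4l, a paralogue of Rps4x, between 3.72 and 24.3 CPM. Rps6, the substrate of the S6 kinases, was at 44.1 ± 14.7 CPM in WT M-MDSCs and 16.6 ± 5.74 CPM in WT G-MDSCs.

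Among the 7 members that were not tested, Rpl26, Rpl10l and Rps27rt had 0 counts in all 16 libraries, and Rpl30, Rpl34, Rpl39l and Rps27 had at most 5 counts in a library. Rpl26, Rpl30, Rpl34 and Rps27 encode standard proteins of the ribosome, and a count of 0 is therefore given here as a count and not as absence of the transcript. Many ribosomal protein genes have near-identical processed copies elsewhere in the genome. Of the 75-base windows in the last 400 bases of the annotated transcript, the share found also in a transcript of another gene was 55.5% for Rpl26, 61% for Rpl30, 51.5% for Rpl34, 98.5% for Rps27 and 90.3% for Rps27rt. It was 0 for Rpl10l and Rpl39l. Shares as high also occurred among tested members, such as 100% for Rpl36a and 99.7% for Rps7. The reason for the low counts was not tested. Of all members, 46 shared at least 50% of these windows and 18 shared none. The counts of members with shared windows are uncertain, and levels are compared between members only with this limit. Over the 81 tested members, the share of windows and the mean log2 CPM had a Spearman correlation of -0.296, given as a description across genes, which are not independent.

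The comparison of the genotypes asked which transcripts differ between MDSCs of Nlrp3-/- and WT hosts. The authors reported smaller B16.F10 tumors and a changed balance of the MDSC subsets in Nlrp3-/- hosts. Loss of the gene in the sorted cells and these differences between the hosts cannot be told apart here. In Nlrp3-/- M-MDSCs 3 members rose and 1 fell, where a call by edgeR's quasi-likelihood test needs an adjusted p (Benjamini-Hochberg) below 0.05 together with a change of over 1.5 times. These were Rpl36, Rplp0 and Rps14 on the one side and Rplp1 on the other. The 3 members that rose make up 3.7% of those tested, beside 3.51% of all 9986 genes tested in that direction, and the 1 that fell makes up 1.23%, beside 7.1% of all genes. The share of members called was thus near or under that of all genes. The median log2 fold change of the members was 0.21 for the large subunit and 0.22 for the small subunit, beside 0.07 for all genes, and 37 of 48 large and 22 of 33 small subunit members had a fitted value above 0 (59 of 81 together, beside 55% of all genes). In 15 members all 4 Nlrp3-/- libraries lay above all 4 WT libraries (18.5%), beside 7.59% of all genes, and in 1 member, Rplp1, they lay below (beside 11.7%).

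In Nlrp3-/- G-MDSCs more members passed the test. Here 18 members rose, 13 of the large and 5 of the small subunit, and 2 fell, both of the large subunit. The members that rose make up 22.2% of those tested, beside 4.7% of all 9273 genes tested, and those that fell 2.47%, beside 11.7% of all genes. The median log2 fold change was 0.36 for the large and 0.44 for the small subunit, beside 0.03 for all genes, and 38 of 48 and 29 of 33 members had a fitted value above 0 (67 of 81 together, beside 51.9% of all genes). All 4 Nlrp3-/- libraries lay above all 4 WT libraries in 35 members (43.2%), beside 12% of all genes, and below them in 2 members, beside 12.3%. Without the fold change minimum 25 members rose, beside 5.72% of all genes, and 2 fell, beside 12.3%.

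The count in G-MDSCs was lower in a fit with offsets for transcript length and GC content. The tested members have short transcripts, with a median length of 906 bases beside 2936 bases for all tested genes, and a median GC content of 51.5% beside 50.1%. With offsets for GC content and length 4 members rose and 3 fell in G-MDSCs, 7 of 81, beside 10.3% of all genes called in either direction under the same offsets. Their median log2 fold change was then 0.23, beside -0.02 for all genes. In M-MDSCs the same offsets left 0 members higher and 1 lower, beside 6.55% of all genes called, and the members' median was 0.06 in place of 0.21, beside 0.03 for all genes. The part of transcript length in the genotype difference was not tested further.

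**Figure D2:**
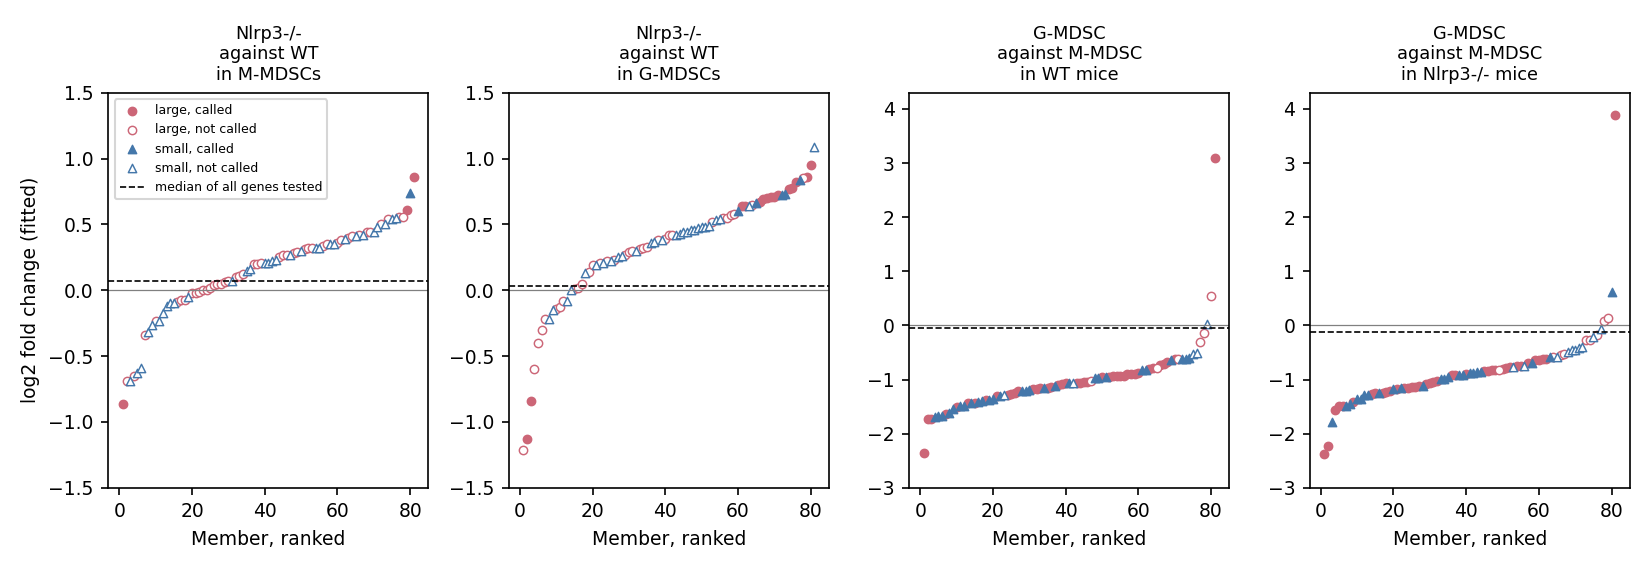
Fitted log2 fold change (vertical axis) of the 81 tested members, ranked from lowest to highest (horizontal axis), in the 4 comparisons between 2 groups. Circles are large and triangles small subunit members, filled symbols are members past an FDR under 0.05 and a fold change above 1.5, and the dashed line is the median of all genes tested. The vertical scale differs between the genotype and the subset comparisons. Most members lie above the dashed line in Nlrp3-/- G-MDSCs and nearly all lie below it in the subset comparisons.

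The stalk of the large subunit, which recruits the elongation factors, is built from Rplp0 with dimers of Rplp1 and Rplp2 and sits beside Rpl12. Its members moved in opposite directions. Rplp1 (chr9:61913284-61914542, mm10) had 1655, 1188, 1361 and 1543 CPM in WT M-MDSCs and 722, 764, 825 and 799.6 CPM in Nlrp3-/- M-MDSCs. In G-MDSCs it had 1437, 798, 526 and 957 CPM in WT and 395, 406, 502 and 500.4 CPM in Nlrp3-/- mice. All Nlrp3-/- libraries lay below all WT libraries in both subsets. The log2 fold change was -0.86 ± 0.15 (SE) in M-MDSCs (edgeR, adjusted p = 0.00658) and -1.13 ± 0.24 in G-MDSCs (edgeR, adjusted p = 0.00597). Rplp1 kept its call in all 19 alternative settings in each subset, between -1.18 and -0.76 in M-MDSCs and between -1.57 and -0.85 in G-MDSCs.

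Its partner Rplp2 had 1039.8, 946, 979.8 and 976 CPM in WT and 1339, 1289, 1495 and 1583 CPM in Nlrp3-/- M-MDSCs. In G-MDSCs it had 618, 368, 397 and 505 CPM in WT and 708, 789.9, 879 and 901 CPM in Nlrp3-/- mice. Here all Nlrp3-/- libraries lay above all WT libraries in both subsets. Rplp2 was higher by 0.56 ± 0.14 on the log2 scale in M-MDSCs (edgeR, adjusted p = 0.0282), which is under the fold change minimum, and rose by 0.71 ± 0.18 in G-MDSCs (edgeR, adjusted p = 0.0136). Rplp0, the base of the stalk, rose by 0.61 ± 0.17 in M-MDSCs (edgeR, adjusted p = 0.0394) and differed by 0.65 ± 0.22 in G-MDSCs (edgeR, adjusted p = 0.0581). The call of Rplp0 in M-MDSCs was lost in 13 of 19 alternatives. In WT M-MDSCs Rplp1 was the highest of the 3 stalk transcripts by CPM in every library, and in Nlrp3-/- M-MDSCs Rplp2 was higher than Rplp1 in every library. This ranking is limited by shared sequence. The share of 3′ windows found in a transcript of another gene was 13.2% for Rplp0, 46% for Rplp1 and 51.2% for Rplp2.

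**Figure D3:**
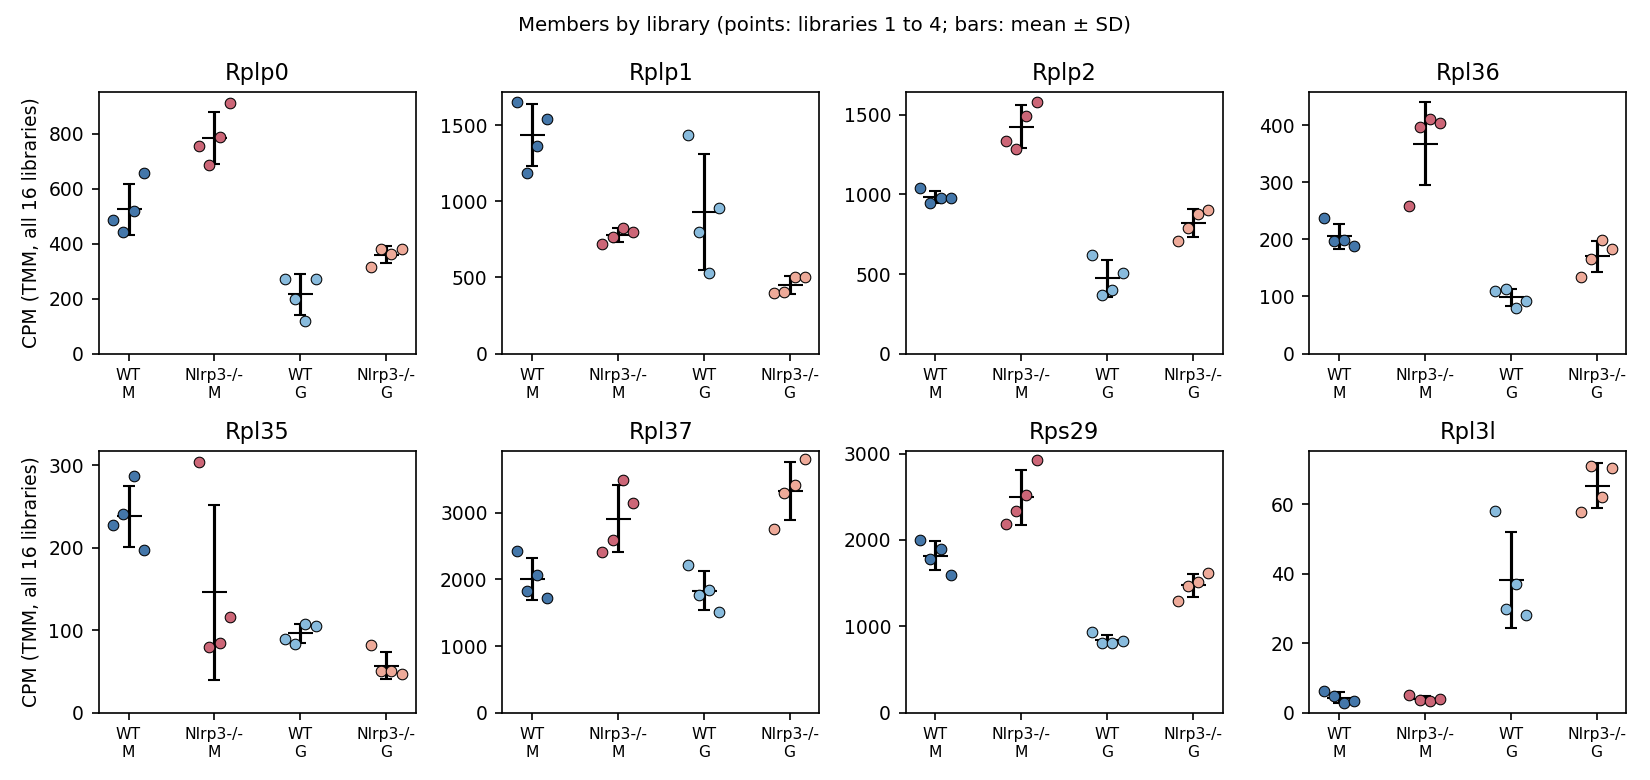
CPM after TMM scaling (vertical axis, from 0) of 8 members in the 16 libraries, by group (horizontal axis, M and G for M-MDSCs and G-MDSCs). Points are libraries 1 to 4 and bars are mean ± SD. Rplp1 is lower and Rplp2 higher in Nlrp3-/- than in WT libraries of both subsets, Rpl35 is high in Nlrp3-/- M-MDSC library 1 alone of its group, Rpl37 shows overlapping levels in both subsets of a genotype, and Rpl3l is at 28 to 70.8 CPM in G-MDSCs and at 2.85 to 6.31 CPM in M-MDSCs.

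Other large subunit proteins lay on both sides as well. The share of 3′ windows found in a transcript of another gene was 70.9% for Rpl36 and 83.7% for Rpl35. Rpl36 had 238, 197.5, 198 and 188 CPM in WT and 259, 396, 412 and 403 CPM in Nlrp3-/- M-MDSCs, and 80.1 to 113 CPM in WT and 134 to 199 CPM in Nlrp3-/- G-MDSCs. It rose in both subsets, by 0.86 ± 0.17 in M-MDSCs (edgeR, adjusted p = 0.00918) and 0.7 ± 0.17 in G-MDSCs (edgeR, adjusted p = 0.0136), and library 1 was the lowest of the Nlrp3-/- group in each. With offsets for GC content and length these values were 0.49 and 0.24, and neither passed the test. Rpl35, a protein at the rim of the exit tunnel, had 228, 240.3, 286 and 197 CPM in WT and 304, 79.2, 84 and 116 CPM in Nlrp3-/- M-MDSCs. Library 1 of the Nlrp3-/- mice lay above every WT library and the other 3 lay below all of them, and the fitted difference was -0.65 ± 0.39 (edgeR, adjusted p = 0.278). In G-MDSCs Rpl35 fell by 0.84 on the log2 scale (SE 0.2; edgeR, adjusted p = 0.012), from 83.1 to 107 CPM in WT to 82.1, 50, 50.3 and 46.6 CPM in Nlrp3-/- mice, where library 1 was again the highest.

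Rpl37a and Rps29 had the lowest adjusted p of the members that rose in G-MDSCs. Rpl37a had 482, 435, 553 and 488 CPM in WT and 838, 876.5, 777 and 941 CPM in Nlrp3-/- G-MDSCs, a difference of 0.72 ± 0.14 (edgeR, adjusted p = 0.00376). Rps29, a zinc-binding protein of the 40S head, had 935, 802, 812.5 and 826 CPM in WT and 1294, 1471, 1516 and 1614 CPM in Nlrp3-/- G-MDSCs, a difference of 0.72 ± 0.14 (edgeR, adjusted p = 0.00385). For both genes the groups did not overlap. Rpl37 rose by 0.78 ± 0.17, Rpl41 by 0.82 ± 0.18 and Rps18 by 0.73 ± 0.18, with adjusted p of 0.00597, 0.0079 and 0.0123 by edgeR, and the 4 Nlrp3-/- libraries of each lay above the WT libraries. Rpl37 and Rpl37a kept their calls with offsets for GC content and length, while Rps29 (0.44), Rpl41 (0.41) and Rps18 (0.37) did not.

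Rpl5 and Rpl11 bind the 5S ribosomal RNA in a particle that can hold Mdm2. Rpl11 rose in G-MDSCs by 0.67 ± 0.17 (edgeR, adjusted p = 0.0126) and was at 0.41 ± 0.15 in M-MDSCs (edgeR, adjusted p = 0.0941). Rpl5 was at 0.39 ± 0.23 in G-MDSCs and 0.07 ± 0.23 in M-MDSCs, and neither passed the test (edgeR, adjusted p = 0.259 and 0.878). Rpl13a, which also serves in an interferon-induced translation silencing complex, was at 0.54 ± 0.17 in M-MDSCs (edgeR, adjusted p = 0.0537) and 0.58 ± 0.23 in G-MDSCs (edgeR, adjusted p = 0.0946), with no overlap between the genotypes in either subset. Rpl38, known for its part in the translation of Hox messenger RNAs, was at 0.12 ± 0.17 and 0.23 ± 0.16 and did not pass the test (edgeR, adjusted p = 0.682 and 0.332).

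In the small subunit, 2 of the 14 members of the 40S head rose in G-MDSCs, Rps18 and Rps29, and none of them fell in either subset. Of all tested members 22.2% rose in G-MDSCs, beside 4.7% of all genes. Of the 4 tested members of the 40S platform, Rps14 rose in M-MDSCs and Rps13 in G-MDSCs. Rps14 had 2465, 1957, 2291 and 2351 CPM in WT and 2605, 3261, 5269 and 3808 CPM in Nlrp3-/- M-MDSCs, with no overlap, and its difference was 0.74 ± 0.2 (edgeR, adjusted p = 0.0381). This call was lost under 10 of 19 alternatives, 6 of the 8 fits that left out a library among them. The difference was 0.54 without Nlrp3-/- M-MDSC library 3, the highest. Of the fits without a library, the call held only without library 1 of either genotype. Rps13 was at 0.55 ± 0.16 in M-MDSCs, under the fold change minimum (edgeR, adjusted p = 0.0487), and rose by 0.6 ± 0.16 in G-MDSCs (edgeR, adjusted p = 0.022), a call lost under 8 of 19 alternatives. Rps19, the gene most often mutated in Diamond-Blackfan anaemia, was at 0.54 ± 0.19 and 0.46 ± 0.17 (edgeR, adjusted p = 0.0786 and 0.0742). Of 9 members listed as Diamond-Blackfan anaemia genes, 1 (Rpl11) rose in G-MDSCs and 0 fell. Their median log2 fold change there was 0.46, near the 0.42 of all 81 tested members. Rps6 and Rpsa, the laminin receptor and a protein of the small subunit, did not pass the test in either subset.

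Whether the genotype effect differed between the subsets was tested by an interaction term over all 16 libraries. No term for the mouse was included, although both subsets came from each mouse. By edgeR 0 of 81 members passed, beside 3 of 10696 genes (0.028%), and DESeq2 called 0 members as well. At an unadjusted p under 0.05 there were 10 members (12.3%), beside 4.49% of all genes. The median difference was 0.21 for the large and 0.36 for the small subunit, beside 0.05 for all genes, and 69 of 81 members had a value above 0, beside 54.6% of all genes. The members with the smallest p were Rpl18 (0.63 ± 0.21), Rpl41 (0.72 ± 0.26) and Rps3a1 (1.02 ± 0.37), with an adjusted p of at least 0.935 by edgeR. The larger count of members that rose in G-MDSCs is therefore not shown to be particular to that subset. Nor do 0 calls show that the subsets were alike, since the test seldom found simulated differences. In simulated counts, by adjusted p alone, it called 1.22% of genes changed 1.5 times and 7.14% of those changed 2 times. Of genes changed 3 times it called 33.9%.

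The comparison of the subsets asked how the sorted populations of the same spleens differ. In WT mice 69 members were lower in G-MDSCs, 41 of the large and 28 of the small subunit, and 1 was higher. The members that were lower make up 85.2% of those tested, beside 27.1% of all 9739 genes tested, and the 1 that was higher 1.23%, beside 26.3%. The median log2 fold change was -1.04 for the large and -1.2 for the small subunit, beside -0.05 for all genes. In Nlrp3-/- mice 60 members were lower (74.1%, beside 27.4% of all 10071 genes tested) and 2 were higher (2.47%, beside 23.7%), with a median of -0.87 for each subunit, beside -0.12 for all genes. All G-MDSC libraries lay below all M-MDSC libraries in 64 members of WT mice, beside 26.4% of all genes, and in 52 members of Nlrp3-/- mice, beside 24%. Scaled by library size only, the medians over the members were -1.82 in WT and -1.59 in Nlrp3-/- mice, beside -0.79 and -0.83 for all genes. The comparisons of a genotype and of a subset share libraries, so their values are not independent. Libraries of the same mouse were not paired in the main subset fits, and the paired fit is an alternative described below.

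Rpsa fell in G-MDSCs by 1.69 on the log2 scale in WT mice (SE 0.19; edgeR, adjusted p = 1.46e-05), from 318.5 to 388 CPM in M-MDSCs to 77.9 to 134 CPM. In Nlrp3-/- mice it fell by 1.79 (SE 0.18; edgeR, adjusted p = 1.75e-06). Rps28, a small protein of the 40S head, had 885, 887, 1017 and 850.1 CPM in WT M-MDSCs and 265, 314, 330.3 and 336 CPM in WT G-MDSCs, a log2 fold change of -1.55 ± 0.15 (edgeR, adjusted p = 5.45e-06). Rpl32 had 965 to 1185 CPM in WT and 990.2 to 1099 CPM in Nlrp3-/- M-MDSCs, and 281 to 519 CPM and 391 to 424 CPM in the G-MDSCs, with log2 fold changes of -1.51 ± 0.2 and -1.48 ± 0.14. The genotype made no detectable difference to Rpl32, at -0.02 ± 0.14 in M-MDSCs and 0.01 ± 0.18 in G-MDSCs. Rpl22 fell by 1.14 in WT and by 1.17 in Nlrp3-/- mice.

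A few members departed from this pattern. Rpl37 was at -0.13 ± 0.19 in WT and 0.08 ± 0.16 in Nlrp3-/- mice, and did not pass the test in either (edgeR, adjusted p = 0.576 and 0.712). Rps9, at the entry of the messenger RNA channel, was at 0.02 ± 0.19 in WT mice (edgeR, adjusted p = 0.931). In Nlrp3-/- mice Rps9 was higher in G-MDSCs by 0.61 ± 0.18 (edgeR, adjusted p = 0.0122), with 922 to 1282 CPM beside 578 to 849 CPM in M-MDSCs, and this turned to -0.12 when library size alone was used for scaling. Fau, which encodes the ubiquitin-like fusion of Rps30 and is outside the symbol rule, was at 0.32 ± 0.17 in WT mice (edgeR, adjusted p = 0.118) and was higher in G-MDSCs of Nlrp3-/- mice by 0.74 ± 0.18 (edgeR, adjusted p = 0.00329).

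Rpl3l, the paralogue of Rpl3 that is known from heart and skeletal muscle, was the member with the clearest opposite pattern. Its counts were 10 to 35 in WT and 16 to 43 in Nlrp3-/- M-MDSC libraries, and 72 to 174 and 250 to 300 in the G-MDSC libraries. This corresponded to 6.31, 4.91, 2.85 and 3.42 CPM in WT M-MDSCs and 58, 29.7, 37 and 28 CPM in WT G-MDSCs. No G-MDSC library overlapped with an M-MDSC library. The log2 fold change was 3.1 ± 0.32 in WT (edgeR, adjusted p = 7.51e-06) and 3.88 ± 0.23 in Nlrp3-/- mice (edgeR, adjusted p = 8.38e-09), and it stayed between 2.36 and 4.02 in all alternatives of both comparisons. Rpl3 itself fell by 1.73 and 1.24. None of the 75-base windows at the 3′ end of Rpl3l occurs in another annotated transcript. Even in G-MDSCs Rpl3l stayed below Rpl3 in every library.

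The other paralogues stayed closer to their partners. Rpl22l1 was at -0.9 ± 0.27 in WT and -0.52 ± 0.18 in Nlrp3-/- mice, beside -1.14 and -1.17 for Rpl22, and in the G-MDSCs it rose without Nlrp3 by 0.71 ± 0.23 with an adjusted p of 0.0499 by edgeR. That call was lost in 9 of the alternatives, the fits without any of 7 of the 8 libraries among them. Rpl7l1 was at -0.31 ± 0.16 and -0.17 ± 0.18 and did not pass the test, beside -0.73 and -0.8 for Rpl7. Rps27l, which unlike Rps27 was counted well, fell by 1.35 and 1.12. Rpl36al had the lowest fold change of the members, -2.35 ± 0.37 and -2.37 ± 0.56, beside -0.81 and -0.85 for Rpl36a, and its levels ranged from 22.3 to 109.6 CPM within Nlrp3-/- M-MDSCs. The share of 3′ windows found in a transcript of another gene was 77% for Rpl36al and 100% for Rpl36a, so their counts are uncertain.

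Some members varied widely between libraries of a group. The 12 members with the largest mean SD of log2 CPM within groups, chosen for these values and described without a test, were Rps23 (1.43), Rpl15 (1.18), Rps2 (0.943), Rps27a (0.881), Rpl36al (0.865), Rpl10 (0.774), Rps12 (0.751), Rps4l (0.728), Rps16 (0.696), Rpl19 (0.666), Rpl7a (0.63) and Rpl39 (0.59). The median SD was 0.267 over the tested members and 0.384 over all tested genes. Rps23, which lies at the decoding centre, had 397 CPM in library 1 and 16.5 CPM in library 3 of the Nlrp3-/- M-MDSCs, and 8, 16.9, 158.5 and 124 CPM in the WT G-MDSCs. These 12 members rose and fell together from library to library. The median pairwise Pearson correlation of their deviations from the group means was 0.812 over the 16 libraries (66 pairs), beside 0.166 for the other 69 members (2346 pairs). Rps4l was an exception in some libraries, with 24.3 CPM in WT M-MDSC library 1, where the mean of the set was low.

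**Figure D4:**
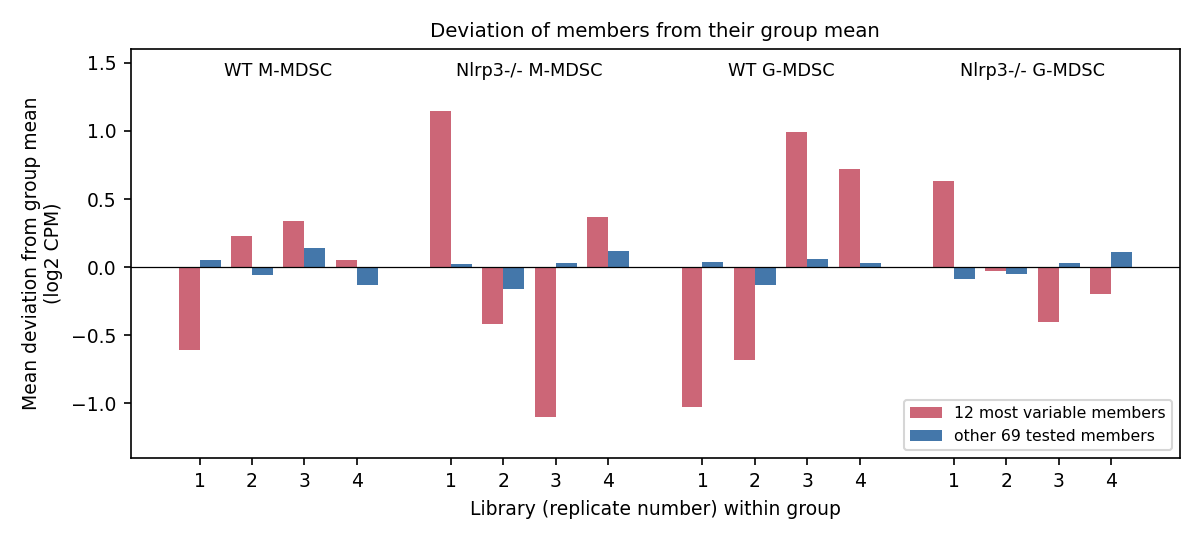
Mean deviation from the group mean in log2 CPM (vertical axis) of the 12 most variable members (red) and of the other 69 tested members (blue), in each library (horizontal axis, replicate numbers within the 4 groups). The red bars reach 1.15 in Nlrp3-/- M-MDSC library 1 and -1.1 in library 3, while the blue bars stay between -0.16 and 0.14.

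The set stood 1.15 above its group mean in Nlrp3-/- M-MDSC library 1, 0.99 and 0.72 above in WT G-MDSC libraries 3 and 4, and at -1.1 and -1.03 in Nlrp3-/- M-MDSC library 3 and WT G-MDSC library 1, as mean deviations of log2 CPM. The median share of 3′ windows found in other transcripts was 76.7% in the set and 46.3% in the other members, while Rps16 shared none. Over the 81 tested members Spearman's rho between the share of such windows and the spread within groups was 0.127, a description across genes. The part of such reads in the variation was not tested further. None of the 12 members passed the test between genotypes in either subset, so all genotype calls above were among the other 69. The 12 were chosen for a large spread, which itself makes a call less likely, so no conclusion is drawn from this.

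Of the elongation factors, which bring transfer RNAs to the ribosome and move it along, 0 of 8 tested in M-MDSCs and 0 of 7 in G-MDSCs passed the test. Their medians were 0.11 and 0.29, with 7 of 8 and 6 of 7 above 0. Eef1a1 was at 0.07 ± 0.45 and 0.76 ± 0.28 and Eef2 at 0.48 ± 0.19 and 0.29 ± 0.17. Of 12 other genes with TOP messenger RNAs, 1 rose and 2 fell in M-MDSCs and 0 rose and 3 fell in G-MDSCs. Of all genes tested, 3.51% rose and 7.1% fell in M-MDSCs, and 4.7% rose and 11.7% fell in G-MDSCs. With so few genes in a list, these counts are a description only. Pabpc1, the poly(A) binding protein, fell by 1.17 in both subsets (SE 0.23 and 0.22; edgeR, adjusted p = 0.00938 and 0.00288).

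Genes for building ribosomes are given beside all genes, of which 7.1% fell in M-MDSCs and 11.7% in G-MDSCs. Of 38 tested large subunit assembly factors, 1 rose and 3 fell in M-MDSCs and 0 rose and 5 fell in G-MDSCs, with medians of -0.21 and -0.35. Of 38 and 37 tested small subunit assembly factors, 2 rose and 8 fell in M-MDSCs and 0 rose and 4 fell in G-MDSCs, with medians of -0.12 and -0.22. Npm1, the nucleolar phosphoprotein, fell by 0.76 and 0.81 (SE 0.13 and 0.19; edgeR, adjusted p = 0.00649 and 0.00842). Between the subsets these lists and the members had medians of one sign. In WT G-MDSCs 23 of 38 tested large and 25 of 38 tested small subunit assembly factors were lower, beside 27.1% of all genes. Myc was at 1.59 to 3.3 CPM as the mean of each group and did not pass the test in any comparison.

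Marker lists for other cells and for cell states were also compared between the genotypes. Beside them, 3.51% of all genes rose and 7.1% fell in M-MDSCs, and 4.7% rose and 11.7% fell in G-MDSCs. Of 9 tested macrophage markers, 7 rose in each subset, and the summed level of the list of 10 was 85.2 to 102 CPM in WT M-MDSCs and 197 to 338.5 CPM in those without Nlrp3. In G-MDSCs it was 406.5 to 756 CPM in WT and 947 to 1193 CPM in Nlrp3-/- mice. Among the proliferation genes (20 tested in M-MDSCs, 19 in G-MDSCs) 2 fell in each subset, with medians of -0.73 and -0.34, and 0 rose. Their sum in M-MDSCs was 598 to 1468 CPM with Nlrp3 and 503 to 821 CPM without it. Summed B cell markers were at 182 to 215.5 CPM (WT) and 167 to 342 CPM (Nlrp3-/-) in M-MDSCs, and at 414 to 629.7 CPM and 485 to 701 CPM in G-MDSCs. Of the mature neutrophil markers, 1 of 10 rose and 1 fell in G-MDSCs, with a median log2 fold change of 0.13 and 9 above 0. In M-MDSCs 2 of 9 rose and 0 fell, with a median of 0.29 and 7 above 0. Their sum in G-MDSCs was 24837 to 37352.5 CPM in WT and 40788 to 53602 CPM in Nlrp3-/- mice, with no overlap. All 6 tested erythroid markers were below 0 in each subset, with medians of -0.88 in M-MDSCs and -1.47 in G-MDSCs. Of them 1 fell in M-MDSCs and 0 in G-MDSCs. Their sum was 28.5 to 217.2 CPM in WT and 29.5 to 141.2 CPM in Nlrp3-/- M-MDSCs, and 46.9 to 522.7 CPM and 47.1 to 325.3 CPM in G-MDSCs. The 6 melanoma markers summed to at most 1.45 CPM in any library. The part of these cells in the levels of the ribosomal protein genes was not tested.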

How the data were processed

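Both MDSC subsets of 4 WT and 4 Nlrp3-/- mice were sequenced with the QuantSeq 3′ FWD kit. The authors mapped reads to mm10 with HISAT2 2.1.0, counted them by strand with HTSeq, and deposited raw counts per symbol (2295967 to 6079866 per library), which were used here unchanged. Members and gene lists were chosen with earlier results of these data known.

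Counts were tested across all genes in R 4.3.3 with edgeR 4.0.16 (filterByExpr, TMM within each comparison, quasi-likelihood F test). Calls needed an adjusted p (Benjamini-Hochberg) below 0.05 and a change of over 1.5 times. The SE is the log2 fold change divided by the square root of F. Displayed CPM used TMM over all 16 libraries, and log2 CPM a prior count of 2. DESeq2 1.42.0 was an alternative, with other scalings, filters, offsets from splines (4 degrees of freedom each for GC content and length), replicate blocks and fits without each library. Scripts were tested on simulated data.

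Named members were, in each comparison of 2 groups, the 5 higher and 5 lower with the smallest p at an FDR under 0.05, the 3 with the smallest interaction p, the highest and lowest of each subunit, and a list of stalk, 5S, disease and paralogue genes. Others, such as the most variable members and Myc, were chosen after their values were seen. Of other genes, the text names Fau, elongation factors and those with the smallest p of a list.

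Same-numbered M-MDSC and G-MDSC libraries come from the same mouse by the labels, and their deviations correlated at 0.239 (WT) and 0.19 (Nlrp3-/-) on average. Same-numbered WT and Nlrp3-/- libraries are different mice. Transcript lengths, GC content and gene positions came from GENCODE M21 (GRCm38), where all 88 members were matched. The amount of 3 counts was 0.493 to 1.31 CPM, and such limits cover counting error only. The day of the sort is not given in the sources used here. The number of amplification cycles differed among libraries, and which libraries had more is not stated. Some genes are not reported here.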

Additional observations from a re-analysis of the deposited data

Results flagged for a closer look

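In 160 groups of 4 libraries, for the summed share of each subunit and the level of the named members, the gap of the outermost library to its neighbour was set against the range of the group, and 9 ratios passed the 95% critical value of Dixon's ratio. Chance flags about 1 in 20 such groups. Rpl35 stood out in both subsets of Nlrp3-/- mouse 1, with 304 CPM in M-MDSCs (ratio 0.834) and 82.1 CPM in G-MDSCs (0.897). In the M-MDSCs of the same mouse Rpl15 was high, at 21.6 CPM (0.869), and Rpl36 was low, at 259 CPM (0.898). In Nlrp3-/- G-MDSCs library 4 was high for Rpl11, at 663 CPM (0.865), and for Rpl36a, at 430.4 CPM (0.88). Library 2 of that group was high for Rpl41, at 419.6 CPM (0.832), and low for Rpl18, at 202 CPM (0.861). In WT G-MDSCs Rpl22l1 was high in library 4, at 52.9 CPM (0.937).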

How the results depend on the processing

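Of the values of named members under the alternatives, 1444 kept direction and call, 150 lost the call and 1 reversed, Rps9 between subsets of Nlrp3-/- mice with library size only (-0.12). Members called between genotypes in M-MDSCs (4) were 9 with library size only, 2 in a model of all 16 libraries, and 1 with the replicate block, with offsets for GC content and length, or with both. Without single libraries they were 1 to 10, namely 10 without Nlrp3-/- M-MDSC library 1, 1 without library 4, and 2 without Nlrp3-/- library 2 or 3 or WT library 2 or 3. In G-MDSCs (20) they were 11 with the replicate block, 7 with the offsets and 2 with both, and 10 to 25 without single libraries, with 11 without WT library 2, 13 without Nlrp3-/- library 2 and 10 without Nlrp3-/- library 4. The median log2 fold change in G-MDSCs (0.42) was 0.23 with the offsets and 0.26 with both, and 0.38 to 0.47 without single libraries, and in M-MDSCs (0.21) it was 0.06 and 0.05 with the offsets and with both, and 0.12 to 0.3 without single libraries. Same-numbered WT and Nlrp3-/- libraries share only a number, and their deviations correlated at -0.157 and -0.152 on average. Between the subsets, where the mouse was the block, the paired fit moved no count by over 1.5 times. Their medians were -1.82 (WT) and -1.59 (Nlrp3-/-) with library size only, and -0.89 (WT) with the replicate block and the offsets. After TMM scaling the large subunit sums of WT and Nlrp3-/- M-MDSCs and WT and Nlrp3-/- G-MDSCs were 2.19%, 2.57%, 1.2% and 1.69%, and those of the small subunit 2%, 2.51%, 1.04% and 1.52%. Beyond what the alternatives show by construction, the cause was not tested. Counts were low for Rpl15, Rps4l and the 7 untested members, and the reason was not tested.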
